A study of Mus musculus with 9 samples.

Results

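The gene described here is Padi4, followed through 1 row of a table of 56923 rows of read counts from mouse EL4 tumours. The row was chosen because earlier work on these counts had found it higher in HVEM-KO than in Vec tumours, so its levels are a description and carry no test. The table's nuclear rows do not hold the genes they are named for. The row is deposited as ENSMUSG00000040860, the identifier of Crocc, and the name Padi4 is an inference from where its reads appear to lie.

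EL4 is a T-cell lymphoma line of the mouse, and HVEM, the product of Tnfrsf14, is a surface protein that binds the inhibitory receptor BTLA and the cytokine LIGHT. The series holds RNA from 9 tumours, 5 of genotype Vec and 4 of genotype HVEM-KO, and its title asks how HVEM on leukaemia cells affects CD8 T cells. The labels do not spell out Vec. They give no age, strain or sex of a host, no clone number, and do not tie libraries to animals, so any p-value measures the spread between these libraries, which may be technical. They are numbered here in the order in which they were deposited.

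PAD4, the enzyme that Padi4 encodes, turns arginine residues of proteins into citrulline in the presence of calcium. It enters the nucleus, where histones are among its substrates, and it is best known from neutrophils, in which citrullinated chromatin is released as extracellular traps. The other peptidylarginine deiminases, Padi1, Padi2, Padi3 and Padi6, lie beside it in the mouse genome, and differ in the tissues that express them.

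In GRCm38, Padi4 (ENSMUSG00000025330) occupies chromosome 4 from 140745865 to 140774236 on the minus strand. Crocc, which encodes the ciliary rootlet protein rootletin, lies farther along the same strand, from 141016637 to 141060550. When the exons of every row on the chromosome were moved together until they best accounted for the reads, the stretch of 516 rows around this one was displaced by -272750 bp. At that displacement the row covered 1721 bp of the 4835 bp of Padi4 exons, which was 95.3% of its overlap with protein-coding genes. The remaining 85 bp lay on Padi3.

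In the main coding transcript of Padi4 the moved row covered 577 of 1998 coding bases, spread over 8 of 16 exons. The coding parts of the exons it covered wholly or nearly so are shown as the longest runs of Padi4 coding sequence under the moved row, with 110, 108 and 155 of its counted coding bases; the rest of the overlap lies in other exons and outside the coding sequence. They are taken from the GENCODE vM21 transcript, 5′ to 3′ on the minus strand of GRCm38, with counted bases in capitals.
Exon 5, chr4:140761601-140761718: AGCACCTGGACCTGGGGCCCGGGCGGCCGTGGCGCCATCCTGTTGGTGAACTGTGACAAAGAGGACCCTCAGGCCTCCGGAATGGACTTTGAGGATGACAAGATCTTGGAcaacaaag
Exon 10, chr4:140756373-140756480: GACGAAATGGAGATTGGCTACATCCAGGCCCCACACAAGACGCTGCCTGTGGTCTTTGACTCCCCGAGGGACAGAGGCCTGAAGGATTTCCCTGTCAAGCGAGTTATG
Exon 11, chr4:140752531-140752685: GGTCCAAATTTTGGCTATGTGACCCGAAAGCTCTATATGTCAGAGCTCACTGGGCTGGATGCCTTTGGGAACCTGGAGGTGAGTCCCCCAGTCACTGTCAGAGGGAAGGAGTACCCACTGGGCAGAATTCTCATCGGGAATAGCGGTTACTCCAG
The gene is better fixed than the exons. For shifts of 250 bp either way the overlap with Padi4 ran from 1307 to 1996 bp, but 0 coding bases were covered at every such shift. In a scan of the 120 nearest rows that left the row itself out, the best displacement was -274400 bp, at which the row still covered 873 bp of Padi4. That placement was 61.3 log-likelihood units above no displacement and 5.09 above the next best beyond 5000 bp, so the name Padi4 remains an inference.

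The rows next to it were also moved off their deposited names. The displacement was fitted to the reads of these same rows, so their totals describe the fit and do not check it. The row deposited as Padi4 held 0 reads in all 9 libraries, under a floor of 3 counts, while the Crocc row held 6194. The row deposited as Atp13a2, moved onto Padi6 and Rcc2, held 49975 reads, and the row deposited as Arhgef19, moved onto Sdhb, held 26316. Rcc2, a chromatin-associated regulator of mitosis, and Sdhb, a subunit of succinate dehydrogenase, are expressed by most dividing cells. Among the rows moved onto the other deiminases, that on Padi3 held 1046 reads, those on Padi2 held 35 and 142, that on Padi6 alone held 3 and that touching Padi1 held 1.

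**Figure D1:**
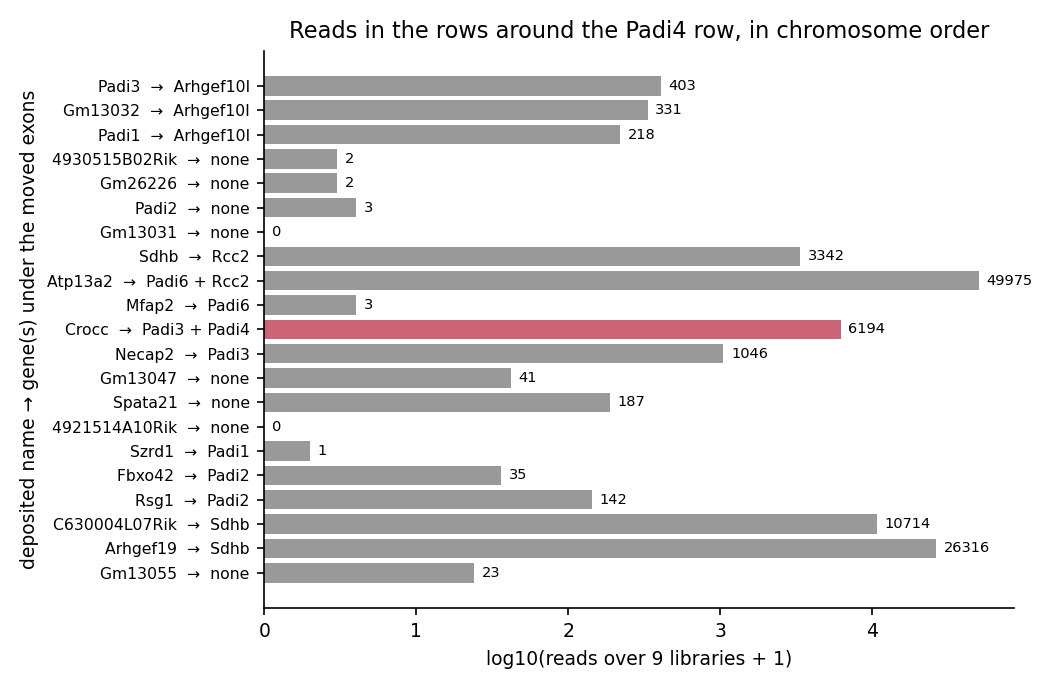
Reads summed over 9 libraries in the Padi4 row (red) and the 10 rows on each side of it in chromosome order, as log10(reads + 1), with the read number beside each bar. Labels give the deposited name and the gene or genes under the moved exons; the Padi4 row held 6194 reads, and 3 rows, over Rcc2 or Sdhb, held more, at 10714, 26316 and 49975.

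The row was at a similar level in the 5 Vec tumours and far above it in 3 of the 4 HVEM-KO tumours. Levels are CPM, reads scaled to a common library size with TMM factors, and means below are given ± SD over 5 Vec and 4 HVEM-KO libraries. Vec 1 to 5 were at 65.0, 83.1, 54.7, 82.4 and 53.6 CPM, from 519, 479, 419, 550 and 313 reads. HVEM-KO 1, 3 and 4 were at 197, 170 and 212 CPM, from 1200, 1033 and 1276 reads. HVEM-KO 2 was at 68.0 CPM, from 405 reads. The groups thus overlapped through that 1 library, which had rank 4 from the lowest of the 9.

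Vec libraries averaged 67.8 ± 14.4 CPM (SD, n = 5) against 162 ± 64.8 CPM (SD, n = 4) for HVEM-KO libraries, and the log2 fold change in the edgeR fit was 1.25 ± 0.28 (SE). Against the Vec mean, HVEM-KO 1, 3 and 4 were 2.91, 2.51 and 3.12 times as high and HVEM-KO 2 was 1.00 times as high. The lowest of the 3 high libraries was 2.04 times the highest Vec library. Counting error was small beside these gaps: the exact Poisson 95% interval, which covers counting error only, was 61.6 to 75.0 CPM for HVEM-KO 2 and 75.9 to 90.9 CPM for Vec 2, the highest Vec library. In bulk tumour RNA, fewer cells of a type and less RNA per cell cannot be told apart.

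**Figure D2:**
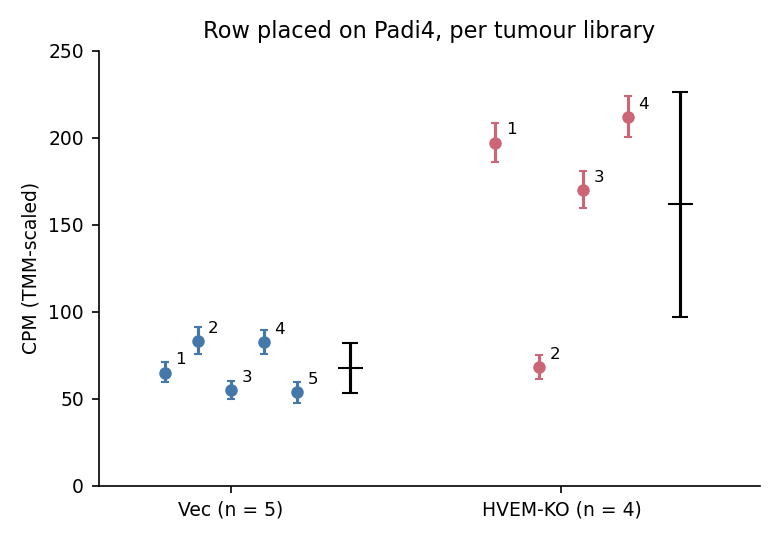
TMM-scaled CPM of the Padi4 row in each tumour library (numbered points, with exact Poisson 95% intervals for counting error) and the group mean ± SD (black). HVEM-KO 1, 3 and 4 sit between 170 and 212 CPM, and HVEM-KO 2 at 68.0 CPM lies among the Vec libraries, which run from 53.6 to 83.1 CPM.

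Library totals ran from 5532155 to 8205620 reads, and the closest pair of libraries, Vec 1 and Vec 5, differed beyond sampling noise with a chi-square of 12.8 per degree of freedom. Reads of mitochondrially encoded genes took 13.7% of HVEM-KO 2, the highest share of the 9, and 5.94%, 9.83% and 8.19% of HVEM-KO 1, 3 and 4. The Vec range was 6.34% to 12.4%, so HVEM-KO 1 lay below it, HVEM-KO 2 above it and the others inside it. Its part in the Padi4 level was not tested. The targeted gene could not be checked. No row was placed on Tnfrsf14, and the row nearest to it, at an uncertain position (posterior 0.576), was at 53.0 ± 15.1 CPM (Vec) against 46.7 ± 6.33 CPM (HVEM-KO).

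The comparison of HVEM-KO with Vec tumours in the edgeR quasi-likelihood fit called 0 of 11521 rows at a false discovery rate of 0.05, or 0%, with 1226 rows at an unadjusted p under 0.05. That last number was 811 without Vec 1, 1932 without Vec 2, 730 without HVEM-KO 3 and 1847 without HVEM-KO 4. DESeq2 called 81 rows, or 0.703%, and limma voom called 0. Of the 11521 rows in the edgeR fit, 5989 had a positive and 5532 a negative log2 fold change. Every row described from here on, other than the Padi4 row, is read against that background. Configurations like that of Padi4 were not rare. In 136 rows HVEM-KO 1, 3 and 4 exceeded all Vec libraries while HVEM-KO 2 stayed inside their range, and in 190 rows the same 3 were below all Vec libraries. With HVEM-KO 4 as the library inside the Vec range the numbers were 349 and 343, with HVEM-KO 1 they were 55 and 65, and with HVEM-KO 3 they were 74 and 36.

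Of the placed rows on other deiminases, that on Padi3 alone had enough reads to be tested. Padi3, which acts on hair and skin proteins such as trichohyalin, was at 15.2, 18.1, 15.2, 18.9 and 16.4 CPM in Vec 1 to 5 and at 28.7, 17.5, 10.9 and 22.9 CPM in HVEM-KO 1 to 4. Its HVEM-KO values lay on both sides of the Vec range, with HVEM-KO 3, high for Padi4, the lowest of the 9. The log2 fold change was 0.26 ± 0.25 (SE; edgeR, adjusted p = 0.701), and Pearson's r with the Padi4 row was 0.380 over 9 libraries. The placed row on Padi2 reached 1.68 CPM at most, in HVEM-KO 2, and that on Padi6 held its 3 reads in Vec 1 and HVEM-KO 4, too few to compare.

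Genes that flank the deiminases had log2 fold changes below that of Padi4, with Arhgef10l the nearest to it at 1.12. Of 20 listed neighbours 10 had a placed row, and 10 rows on 8 of these genes were tested. The log2 fold change was positive in 7 and negative in 3, with a median of 0.10 against 0.01 over all tested rows, and 0 were called (edgeR, adjusted p from 0.427 to 0.978; 1 row, on Arhgef10l, at an unadjusted p under 0.05; 0 by DESeq2 or limma voom). Sdhb was at 475 ± 144 CPM (Vec) against 412 ± 83.1 CPM (HVEM-KO). Rcc2 was at 57.8 ± 16.8 and 56.9 ± 13.7 CPM. Crocc itself, reached through the row deposited as Epha2, was at 7.22 ± 3.97 and 7.91 ± 1.89 CPM. Atp13a2, a lysosomal polyamine transporter, was at 304 ± 106 and 311 ± 127 CPM, and the row of most reads on Fbxo42, a ubiquitin ligase subunit, at 190 ± 17.4 and 215 ± 28.1 CPM. Spen, a transcriptional repressor, had log2 fold changes of 0.31 and -0.04 in its rows, and Epha2, an ephrin receptor, of 0.82. The row on Spata21 held 14 reads. Arhgef10l, a guanine nucleotide exchange factor, was at 3.85 ± 1.39 and 8.36 ± 6.13 CPM, with its highest value in HVEM-KO 3 at 16.9 CPM. Its log2 fold change was 1.12 ± 0.45 (SE). Adjacent rows over Arhgef10l that did not meet the placement rule, deposited as Padi3 and Padi1, had log2 fold changes of 0.91 and 0.96. Over the 10 of the 20 adjacent rows that were tested, r with the Padi4 row ran from -0.452 to 0.622, with a median of 0.190.

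The rows named as following Padi4 most closely were those of highest r among 4501 of the 11521 tested rows. The 4501 were placed on 1 gene and had a mean log2 CPM of 1 or more, predicted genes and receptor segments aside. The neighbours were taken by position, so the closer r of the rows taken by r is no contrast with them. Among all tested rows, 21 others had an r of at least 0.9 with Padi4 and 36 an r of -0.9 or below. The 1st and 99th percentiles of all rows were -0.844 and 0.819. Of the 21, 11 were placed on 1 gene, and the rest could not be named. These correlations are descriptions over 9 libraries that share depth and composition. They rest largely on the split between 3 high and 6 low libraries, so r within the 6 lower libraries is given beside them.

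The 10 placed genes of highest r were Clip1, Abhd2, Rubcn, Actg1, Sema4g, Tcf7l1, Atp2b4, Lrrn2, Insrr and Tspyl2, with r from 0.905 to 0.938 and Spearman's rho from 0.783 to 0.983. Within the 6 lower libraries their r ran from 0.592 to 0.959, and without HVEM-KO 1 and HVEM-KO 4, the libraries farthest from the median of Padi4, from 0.824 to 0.925. In 8 of the 10 HVEM-KO 2 lay in the Vec range while the other HVEM-KO libraries exceeded it. In Atp2b4 and Insrr all 4 HVEM-KO libraries exceeded it, but HVEM-KO 2 did so by less than counting error. The choice by r favours this shape. Which genes made up the 10 depended on the measure: 2 of them stayed among the 10 highest by rho, 3 without HVEM-KO 3 or without HVEM-KO 4, 4 without Vec 3, and 6 without Vec 4 or without Vec 1 and Vec 5.

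Clip1, a protein that tracks growing microtubule ends, was closest, with r = 0.938 and r = 0.895 in the 6 lower libraries. It was at 15.5, 19.1, 13.7, 18.3 and 15.6 CPM in Vec 1 to 5 and at 21.0, 15.6, 21.7 and 23.4 CPM in HVEM-KO 1 to 4. HVEM-KO 2 lay among the Vec values, and the other HVEM-KO libraries stood above Vec 2, the highest of them. Abhd2, a serine hydrolase, had the highest r within the 6 lower libraries, at 0.959. It was at 157 ± 18.1 CPM (Vec) against 195 ± 20.8 CPM (HVEM-KO).

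In 9 of the 10 the log2 fold change was below that of Padi4, and in Insrr above it. The values ran from 0.29 for Atp2b4, a calcium pump of the plasma membrane, to 1.74 for Insrr, a receptor related to the insulin receptor that was at 1.04 ± 0.385 CPM (Vec) against 3.51 ± 0.922 CPM (HVEM-KO). Insrr and Padi4 aside, Sema4g, a semaphorin, had the highest at 0.80, and it was also low in reads, at 2.63 ± 0.574 and 4.59 ± 2.25 CPM. Rubcn, which restrains autophagy, had a log2 fold change of 0.42, Tcf7l1, a transcription factor of the Wnt pathway, 0.41, and Tspyl2, a nucleosome assembly protein, 0.50. Actg1, which encodes cytoplasmic gamma actin, was the most abundant row of the 10, at 976 ± 179 and 1332 ± 210 CPM, and shares near-identical sequence with other actin genes.

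The 5 placed genes of lowest r were Ippk, Ptk2, Wif1, Skap1 and Csrnp3, with r from -0.968 to -0.939. Within the 6 lower libraries their r ran from -0.869 to -0.579. Ippk, the kinase that makes inositol hexakisphosphate, had the lowest r over all libraries, but within the 6 lower libraries its r was -0.677, against -0.869 for Skap1. Ippk was at 25.7, 22.7, 24.3, 24.6 and 28.1 CPM in Vec 1 to 5 and at 16.1, 24.4, 17.6 and 17.3 CPM in HVEM-KO 1 to 4. HVEM-KO 2 was again inside the Vec range and the other HVEM-KO libraries below it. Skap1, an adaptor of T cell receptor signalling, was at 92.5 ± 14.0 CPM (Vec) against 68.4 ± 15.01 CPM (HVEM-KO), and at 90.2 CPM in HVEM-KO 2.

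For Ptk2, which encodes focal adhesion kinase, HVEM-KO 2 was at 2.35 CPM and the other HVEM-KO libraries at 0.164 to 0.493 CPM, a handful of reads. Wif1, a secreted inhibitor of Wnt proteins, did not return to the Vec level in HVEM-KO 2: it was at 32.1 CPM there, between the 50.5 CPM of the lowest Vec library and the 16.3 CPM of HVEM-KO 3. Csrnp3, a transcription factor, was at 3.36 CPM in HVEM-KO 2, just under the 3.47 CPM of the lowest Vec library. That gap lies within counting error, as the row held 221 reads over all 9 libraries.

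**Figure D3:**
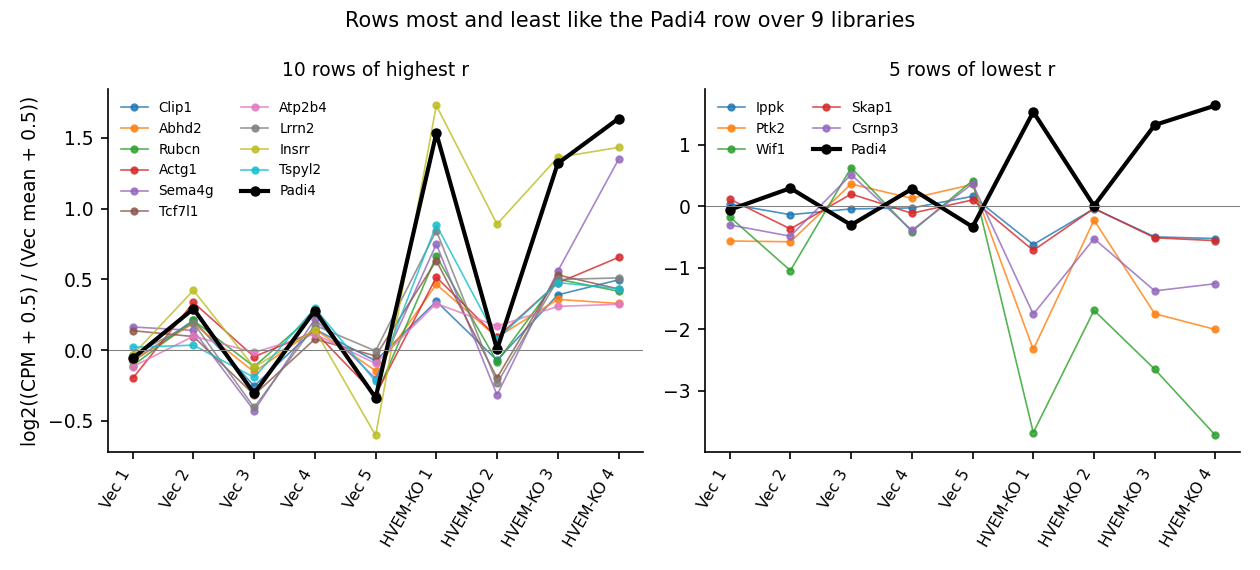
Level in each library relative to the Vec mean, as log2 of (CPM + 0.5) over (Vec mean + 0.5), for the Padi4 row (black) and the 10 placed rows of highest r (left) or the 5 of lowest r (right); lines only link points of 1 row. In HVEM-KO 2 most rows sit near 0, where Padi4 has 1.00 times its Vec mean, while Insrr stays above and Wif1 and Csrnp3 stay below.

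A second ranking used deviations from the group means, which removes the difference between Vec and HVEM-KO. Its 5 highest were Ubn1, Sema4g, Clip1, Kdm2b and Chd4, with r of deviations from 0.913 to 0.963, where the 99th percentile of all rows was 0.811. Ubn1, a subunit of the HIRA chaperone that deposits a histone H3 variant, was at 8.86 ± 1.18 CPM (Vec) against 8.48 ± 2.78 CPM (HVEM-KO), a log2 fold change of -0.06. It was lowest of the 9 in HVEM-KO 2, at 4.70 CPM. Kdm2b, a histone demethylase, and Chd4, the remodelling ATPase of the NuRD complex, were also lowest in HVEM-KO 2, at 7.73 and 247 CPM. The r of the levels themselves was 0.476 for Ubn1 and 0.710 for Kdm2b over all 9 libraries, and 0.181 and 0.300 without HVEM-KO 1 and HVEM-KO 4.

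Neutrophils are the cells best known for Padi4, but few of their genes could be read. Of 23 listed neutrophil genes 2 had a placed row, and S100a8, S100a9, Ly6g, Mpo and Elane did not. Csf3r, the receptor for granulocyte colony-stimulating factor, was at 17.3, 58.0, 19.2, 36.4 and 13.2 CPM in Vec 1 to 5 and at 42.2, 59.5, 73.7 and 42.0 CPM in HVEM-KO 1 to 4. In HVEM-KO 2, at the Vec level for Padi4, Csf3r was level with Vec 2, the highest Vec library. In HVEM-KO 4, highest for Padi4, Csf3r was level with HVEM-KO 1, the lowest of the others in its group. Both gaps lie within counting error. Its log2 fold change was 0.92 ± 0.38 (SE; edgeR, adjusted p = 0.433), and its r with Padi4 was 0.602, or 0.207 for deviations from the group means. Fpr1, a receptor for formylated peptides, was at 2.69 ± 2.40 and 2.46 ± 1.71 CPM, with r = -0.072. The summed level of both ran from 13.5 to 64.6 CPM over the Vec libraries and from 43.0 to 75.7 CPM over the HVEM-KO libraries, and its part in the Padi4 level was not tested.

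Of 17 genes that act in extracellular trap formation, 4 had a placed row and 3 were tested. Cybb, the catalytic subunit of the phagocyte oxidase, was at 10.9 ± 5.997 CPM (Vec) against 19.96 ± 2.57 CPM (HVEM-KO) (log2 fold change 0.87 ± 0.36; edgeR, adjusted p = 0.433). HVEM-KO 2 was at 20.7 CPM for Cybb, above the 17.0 CPM of Vec 2, the highest Vec library. That gap lies within counting error, as the row held 845 reads over all 9 libraries. Gsdmd, which encodes the pore-forming gasdermin D, was at 127 ± 6.75 and 145 ± 21.4 CPM, and Rac2, a GTPase of the oxidase, at 26.4 ± 2.23 and 25.5 ± 6.25 CPM. The row on Ctsg, which encodes the neutrophil protease cathepsin G, held 4 reads. The edgeR fit called 0 of the 3, with 1, Cybb, at an unadjusted p under 0.05, and DESeq2 and limma voom called 0.

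Of 16 listed substrates and chromatin partners of PAD4, 7 had a placed row and 6 were tested, of which 1 had a positive and 5 a negative log2 fold change, with a median of -0.20 against 0.01 over all tested rows. That median was -0.12 without HVEM-KO 1 and -0.32 without HVEM-KO 4. Dnmt3a, a DNA methyltransferase, was the positive one, at 80.8 ± 10.7 CPM (Vec) against 96.2 ± 6.72 CPM (HVEM-KO) (0.25 ± 0.14). Npm1, a nucleolar chaperone, was at 1250, 968, 1363, 991 and 1274 CPM in Vec 1 to 5 and at 664, 1257, 829.3 and 1184 CPM in HVEM-KO 1 to 4. Its r with Padi4 was -0.698, the lowest of the list, and HVEM-KO 2 lay in the Vec range. Hdac1, a histone deacetylase, Cbx5, which encodes heterochromatin protein HP1 alpha, Elk1, a transcription factor, and Ep300, a histone acetyltransferase, had log2 fold changes of -0.14, -0.30, -0.10 and -0.27. Gsk3b held 26 reads. In this list 0 rows were called by edgeR (adjusted p from 0.483 to 0.896, 0 at an unadjusted p under 0.05), DESeq2 or limma voom.

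Genes of the T lineage, the lineage of EL4 cells themselves, mostly had negative r with Padi4. Of 17 listed genes 7 were tested, with 5 lower and 2 higher in HVEM-KO tumours, a median log2 fold change of -0.41 and a median r with Padi4 of -0.710. The median log2 fold change was -0.20 without Vec 5 and -0.11 without Vec 1 and Vec 5. Thy1, a surface glycoprotein of T cells, was at 2007, 1492, 1846, 2133 and 2796 CPM in Vec 1 to 5 and at 1165, 1972, 1576 and 1064 CPM in HVEM-KO 1 to 4, with r = -0.858. HVEM-KO 2 was the highest HVEM-KO library and inside the Vec range. Lat, the adaptor that links the T cell receptor to its signalling, had r = -0.726 and Cd5, an inhibitory receptor, r = -0.858. The edgeR fit called 0 of the 7, with 3 at an unadjusted p under 0.05 (adjusted p from 0.393 to 0.814), and DESeq2 and limma voom called 0. The summed level ran from 2934 to 5791 CPM over the Vec libraries and from 2483 to 3698 CPM over the HVEM-KO libraries, where HVEM-KO 2 was the highest. Its part in the Padi4 level was not tested.

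Markers of the cell types that a tumour can hold ranged in their r with Padi4 from -0.858 to 0.779. Over the 38 tested rows of the 10 cell type lists, T lineage and neutrophil genes included, 27 had a positive and 11 a negative log2 fold change. Of the 38, 0 were called by edgeR (14 at an unadjusted p under 0.05, adjusted p from 0.393 to 0.977), DESeq2 or limma voom. Over all 11521 tested rows, edgeR gave 5989 positive and 5532 negative log2 fold changes, with 1226 rows at an unadjusted p under 0.05. In the macrophage and monocyte list 5 of 6 tested genes had a positive log2 fold change, with a median of 0.79 and a median r with Padi4 of 0.264. The median log2 fold change was 0.46 without HVEM-KO 3, and the same when both Vec 1 and Vec 5 were left out. C1qc, a chain of complement C1q, was at 172 ± 62.7 CPM (Vec) against 308 ± 188 CPM (HVEM-KO), and Ly6c2, a monocyte surface protein, at 139 ± 44.0 and 136 ± 81.1 CPM. For C1qc HVEM-KO 4, highest for Padi4, was the lowest of its group at 83.7 CPM, and HVEM-KO 2 was at 386 CPM. The summed level of the list was 231 to 470 CPM over the Vec libraries and 397 to 805 CPM over the HVEM-KO libraries.

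Of the fibroblast list 9 of 10 tested genes were positive, with a median log2 fold change of 0.63 and a median r of 0.248. Leaving out Vec 2 gave 0.98 for that fold change, leaving out HVEM-KO 3 gave 0.36, and leaving out both Vec 1 and Vec 5 gave 0.24. Col1a2 and Col1a1, the chains of type I collagen, were at 7753 and 4568 CPM in HVEM-KO 2 and at 2052 and 828 CPM in HVEM-KO 4. Of the endothelial list 4 of 4 were positive (median 0.79, or 0.46 without Vec 1 and Vec 5), with Pecam1, an adhesion molecule, at 126 ± 46.3 and 165 ± 9.99 CPM (r = 0.601), and Tie1, a receptor kinase, at 15.7 ± 6.92 and 26.0 ± 12.8 CPM. The summed fibroblast level was 4762 to 17440 CPM over the Vec libraries and 5828 to 25266 CPM over the HVEM-KO libraries, and the endothelial level 102 to 250.3 and 199.5 to 265 CPM.

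Of the cytotoxic lymphocyte list 4 of 5 tested genes were positive, with a median log2 fold change of 0.95 (0.61 without Vec 1 and Vec 5) and a median r of 0.484. Gzmm, a granzyme, was the negative one, with a log2 fold change of -0.48 and r = -0.558 from 229 reads. Klrk1, which encodes the activating receptor NKG2D, had the highest r of any list row at 0.779, from 115 reads in all, and was picked for it. It was at 0.251, 1.91, 1.44, 1.498 and 0.513 CPM in Vec 1 to 5 and at 4.11, 2.02, 3.95 and 2.82 CPM in HVEM-KO 1 to 4 (log2 fold change 1.52 ± 0.50, edgeR adjusted p = 0.393). All HVEM-KO libraries exceeded the Vec libraries, but HVEM-KO 2, the lowest of them, exceeded Vec 2 by less than counting error. The row covered 101 bp of Klrk1, just over the minimum of 100 bp for a placement. Klrd1, which encodes the lectin receptor CD94, was at 12.7 ± 5.57 and 19.9 ± 4.497 CPM, and Cd8b1, the CD8 beta chain, at 3.14 ± 1.49 and 6.05 ± 2.30 CPM. The summed level was 14.5 to 32.1 CPM over the Vec libraries and 26.6 to 45.7 CPM over the HVEM-KO libraries, and no row was placed on Cd8a, Gzmb or Prf1. The part of these cell types in the Padi4 level was not tested.

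The remaining lists had 1 tested row each. Itgax, an integrin of dendritic cells and macrophages, was at 20.7 ± 9.09 and 40.7 ± 15.3 CPM, Pax5, a B cell transcription factor, at 12.5 ± 3.74 and 11.8 ± 4.42 CPM, and Mcpt4, a mast cell protease, at 11.3 ± 4.12 and 12.4 ± 6.74 CPM. Hbb-bs, a beta globin gene of red cells, was at 161 CPM in HVEM-KO 2, above every other library, and at 23.5, 75.2 and 28.5 CPM in HVEM-KO 1, 3 and 4, with r = -0.763. Rows on Ms4a1, Ms4a2 and Itga2b, further markers of B cells, mast cells and megakaryocytes, held 20, 9 and 36 reads. The part of red cell RNA in the Padi4 level was not tested.

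**Figure D4:**
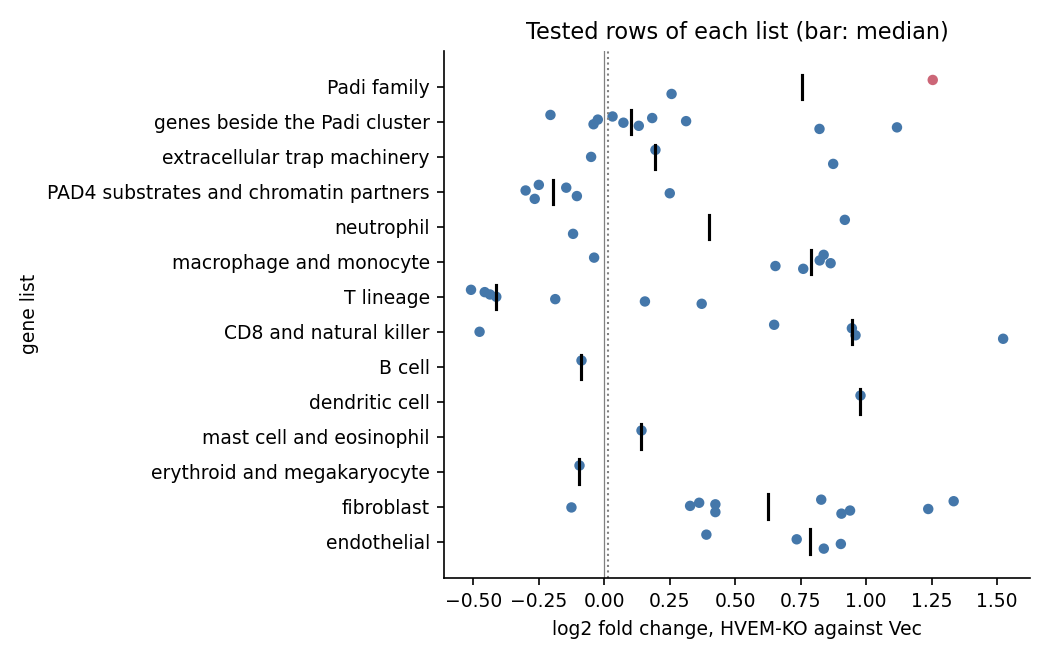
Log2 fold change (HVEM-KO against Vec) of every tested row in each gene list; black bars are list medians, the dotted line is the median of all tested rows at 0.01, and the red point is Padi4 at 1.25. Most rows of the macrophage, cytotoxic, fibroblast and endothelial lists lie above 0 and most of the T lineage and PAD4 partner lists below 0; the edgeR fit called 0 of the rows shown.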

How the data were processed

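The deposited file gives raw read counts, 1 row per gene identifier, in 9 tumour libraries (5532155 to 8205620 reads each). Per the submitters' processing notes, mm10 was the genome; which aligner, counter and annotation were used is not given in the sources used here. Per the labels' protocols, TRIzol and a SMARTER mRNA kit were used.

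Each row's exons in GENCODE vM21 (GRCm38) were moved along their chromosome by up to 2000000 bp on a grid of 250 bp. The displacement could change between rows at a cost of 20 log-likelihood units, and a hidden Markov model chose the one at which overlap with protein-coding exons best accounted for row totals, from a count model by overlap and exon length, with highly expressed gene families as a class of their own. Families that are mostly silent, such as olfactory receptors, and predicted genes were left out of the overlap. Placement on a gene required a posterior of 0.99 or more (within 1000 bp), an overlap of 100 bp or more that made up 90% of the coding overlap, and that shifts of 250 bp either way kept the gene. This placed 7417 of 50488 rows on 5696 genes, with 40.3% of the reads; the row of most reads stands for a gene in the lists, except for the deiminases and their neighbours, where every placed row is kept. On data simulated from the fitted count model, 95.8% of 6837 rows on 3 chromosomes were found within 1000 bp. That tests the search, not the count model. Levels are compared within a row only, and strand was not used.

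The test was that of edgeR 4.0.16 under R 4.3.3 (TMM, filterByExpr, robust quasi-likelihood F test, Benjamini-Hochberg adjustment over 11521 rows); DESeq2 1.42.0 and limma 3.58.1 were alternatives. The fit was also checked on simulated counts. Log2 CPM for correlations used a prior count of 2. Named genes were the Padi4 row, all placed rows of the deiminases and their neighbours (1 neighbour is not reported here), the placed rows whose mean log2 CPM was 1 or more, predicted genes and receptor segments aside, that had the 10 highest and 5 lowest r with it and the 5 highest r of deviations, the placed members of the neutrophil, trap and PAD4 partner lists, and the 2 placed members with most reads of other lists; Cd5, Klrk1, Lck and Cd3e lie outside that rule and were chosen after their values were seen. The members and lists were chosen with earlier results of these data known.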

Additional observations from a re-analysis of the deposited data

Results flagged for a closer look

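Each named row was examined in each group for a library whose distance from its closest neighbour took up most of the group's range (the gap share). Of 154 such cases 6 passed the critical value, where chance gives about 1 in 20, or 7.7. HVEM-KO 2 stood apart for Atp2b4 (gap share 0.868, 134 CPM against 148 to 149.6) and for Ptk2 (0.849, 2.35 CPM against 0.164 to 0.493). Both rows were picked for their r with Padi4, where HVEM-KO 2 was the lowest of its group. For the Padi4 row itself the gap share of HVEM-KO 2 was 0.709, beside a critical value of 0.829 for 4 libraries. That row was chosen for its levels, so its gap share is a description and no test of HVEM-KO 2. Vec 3 was high for Sdhb (0.760, 727 CPM against 368 to 454) and Vec 5 for Lck (0.785, 605 CPM against 363 to 415). Vec 2 was low for Cd3e (0.729, 1.21 CPM against 2.996 to 3.66), and HVEM-KO 3 high for Mcpt4 (0.932, 22.5 CPM against 8.63 to 9.57).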

How the results depend on the processing

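The log2 fold change of the Padi4 row stayed positive, within 1 SD between replicates (0.55), in every alternative run: 1.10 with HVEM-KO 4 left out, the lowest, and 1.51 with HVEM-KO 2 left out, the highest, 1.14 without Vec 1 and Vec 5, 1.16 with limma voom and 1.34 with library size alone. The number of rows called was 307 without a low-count filter and 81 with DESeq2, and 0 to 1 when 1 library was left out; the single row was one over Ehd4 and Pla2g4e without HVEM-KO 4, and without HVEM-KO 2 the Padi4 row itself, which was chosen for this difference, so that its call is no test. With members found by deposited identifier the median log2 fold change was -0.11 for the extracellular trap list and -0.16 for the endothelial list, and -0.45 against 0.40 for the neutrophil list of 2 genes; the lists then hold rows of other loci. The neutrophil median was also -0.07 without Vec 1 and Vec 5, and from 0.09 without HVEM-KO 2 to 0.92 without Vec 2. The extracellular trap median was 0.10 without HVEM-KO 3 against 0.20 over all libraries. Of the 10 genes that followed Padi4 most closely, 2 stayed among the 10 highest by Spearman's rho, 6 without Vec 1 and Vec 5, and 3 to 8 when 1 library was left out. The row stayed on Padi4 with an overlap of 1301 bp at a switch penalty of 10, where its position was uncertain (posterior 0.0056), of 1721 bp at a penalty of 40, and of 873 bp in the local scan. Of 183 alternative values 169 moved by less than 1 SD between replicates, or by less than 1.5 times for a number of rows. That SD is wide beside the list medians, several of which moved by over 1.5 times when 1 library other than Vec 3 or Vec 4 was left out, or Vec 1 with Vec 5; those values stand beside each list or above. The Padi4 row had 313 to 1276 reads per library, so counting error did not limit it. No paired analysis was possible because the labels give the groups no shared replicate numbers.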
